A study of Homo sapiens with 8 samples.

Results

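Transcripts of 9 receptors that belong to or work beside the low-density lipoprotein (LDL) receptor family, namely LRP1, LRP1B, LRP2, LRP4, LRP5, LRP6, LRP8, VLDLR and SORL1, and of reelin (RELN), a ligand of VLDLR and LRP8, were followed in SK-N-SH cells. The genes were taken by name, which gave 10 of the 60659 genes counted. They were proposed with earlier results of the same libraries in view and count as selected on the fold changes of cells overexpressing ZMYND8 against parental cells, where LRP2 was among the largest increases. The values of these genes in that comparison are therefore given as a description with no p, and the counts of them past its thresholds stand beside those of all genes only to be complete. In the knockdown comparison they were tested. As far as is known, that comparison was not used to choose them. Its libraries were among those with earlier results in view, so its p-values may not be free of the choice.

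SK-N-SH is a human neuroblastoma cell line that is differentiated towards neurons with all-trans retinoic acid (ATRA), and ZMYND8 is a chromatin reader protein. Total RNA without ribosomal RNA came from 4 groups of 2 biological replicates, and all 8 cultures received 10 µM ATRA for 24 h. The overexpression experiment had parental SK-N-SH cells given doxycycline (Dox), and cells given Dox that carried FLAG-ZMYND8 in a Dox-inducible lentiviral vector (ZMYND8 OE). The knockdown experiment had cells with a control knockdown (KD control) and cells with ZMYND8 knockdown (ZMYND8 KD). How the knockdown was made in these cells is not given in the sources used here. The parental cells carried no empty vector as far as the labels say, so transduction, selection and the transgene cannot be told apart in the first comparison. The 2 experiments have their own controls, and no library without ATRA was analysed here.

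Receptors of this family are membrane proteins with long extracellular parts that bind proteins and lipoproteins and carry many of them into the cell. LRP1 and LRP2, also called megalin, are large receptors for many ligands, such as proteases bound to their inhibitors. VLDLR and LRP8 bind reelin and pass its signal through the adaptor DAB1 to kinases of the SRC family, which guides migrating neurons. LRP5 and LRP6 are co-receptors for WNT, LRP4 is the receptor for agrin at the nerve-muscle synapse, and SORL1 sorts cargo between the Golgi and endosomes.

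The libraries held between 38316523 and 56256979 counts on genes. Levels are given as CPM per kb (counts scaled to library size with TMM over the 8 libraries, per kilobase of exon). The length sums all annotated exons of a gene, so levels of different genes can be compared only roughly. A comparison of the same gene between groups does not depend on it. ZMYND8 was at 9.53 and 9.16 CPM per kb in parental cells and at 538 and 545 in ZMYND8 OE cells, where reads of the transgene are included. It was at 7.80 and 7.99 in KD control cells and at 4.11 and 4.13 in ZMYND8 KD cells (log2 fold change -0.94), so each library matched its label. The cells expressed 12 markers of the adrenergic state of neuroblastoma at summed levels of 127 to 394, although TH, which makes the precursor of dopamine, was listed at 0 in both knockdown groups. Schwann cell markers summed to at most 1.79 and markers of blood and endothelial cells to at most 0.258.

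The sequences upstream of LRP2, RELN and VLDLR are shown because these 3 genes had the largest increases in ZMYND8 OE cells. Each is the 250 bases before the gene's start in RefSeq (GRCh38.p14), read 5′ to 3′ on the gene's strand. LRP2 is read from chr2:169362535-169362784 (minus strand), RELN from chr7:103989659-103989908 (minus strand) and VLDLR from chr9:2621537-2621786 (plus strand). Capitals mark the GC box GGGCGG on either strand, the site of SP1-like factors, and overlapping matches run together.
LRP2: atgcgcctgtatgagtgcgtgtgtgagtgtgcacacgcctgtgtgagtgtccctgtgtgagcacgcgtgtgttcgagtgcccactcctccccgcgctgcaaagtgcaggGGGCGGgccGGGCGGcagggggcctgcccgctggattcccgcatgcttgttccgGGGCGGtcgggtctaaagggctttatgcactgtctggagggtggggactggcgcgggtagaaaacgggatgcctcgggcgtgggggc
RELN: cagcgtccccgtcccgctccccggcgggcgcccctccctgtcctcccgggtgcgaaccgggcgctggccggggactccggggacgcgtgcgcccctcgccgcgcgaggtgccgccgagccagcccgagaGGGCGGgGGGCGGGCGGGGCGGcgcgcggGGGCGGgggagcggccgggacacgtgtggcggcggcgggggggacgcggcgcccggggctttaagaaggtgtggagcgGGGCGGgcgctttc
VLDLR: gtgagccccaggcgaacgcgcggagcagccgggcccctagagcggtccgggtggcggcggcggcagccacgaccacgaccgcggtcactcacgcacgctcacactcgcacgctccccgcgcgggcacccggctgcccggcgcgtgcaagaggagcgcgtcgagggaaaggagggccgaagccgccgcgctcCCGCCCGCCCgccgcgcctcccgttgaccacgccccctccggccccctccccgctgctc

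The promoter table held 7 of the 10 genes (LRP1, LRP2, LRP5, LRP8, VLDLR, SORL1 and RELN). All 7 had the GC box, from 1 match in LRP1 to 6 in RELN, as did 42.3% of the 27305 promoters in the table. They were rich in G and C, from 66.8% in LRP2 to 87.2% in LRP5, against a median of 58.0% over all promoters. Dinucleotides CG numbered 20 in LRP1, 21 in LRP2, 31 in LRP8, 41 in VLDLR, 43 in RELN and LRP5 and 45 in SORL1, with a median of 11 over all. The letters AGGTCA bound by a retinoic acid receptor (in 12.1% of all promoters), its direct repeat with 5 bases between (0.0037%), the AP-1 site TGANTCA (6.60%), the GATA letters AGATAA (9.37%) and TATAAA (11.1%) were in none of the 7 windows. The E-box CACGTG (6.49% of all) was in RELN and SORL1, and the E-box CAGNTG (42.5%) in SORL1. All motifs were searched on both strands, and a match or its absence describes these letters in this window only.

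In ZMYND8 OE cells RELN, VLDLR and LRP2 were higher than in parental cells, LRP1, LRP4, LRP5, LRP6, LRP8 and SORL1 were lower by 18.0% (LRP8) to 43.1% (LRP4) on the level scale, and LRP1B was at a like level. All 10 genes passed the filter on low counts, LRP2 only through the ZMYND8 OE libraries. By the thresholds of the fit, 3 were past the adjusted p upwards (31.7% of all 20835 genes in the fit were) and 6 downwards (29.1% were). The same 3 also had a log2 fold change of at least 1 (11.8% of all genes), and 0 did downwards (6.84%). The groups did not overlap for 9 of the 10, as for 80.3% of all genes. The median log2 fold change was -0.42, with LRP2 at its lower bound or as fitted, against 0.03 over all genes tested and -0.02 over the 6624 tested genes with at least 6000 bases of exon. Since this comparison was used to choose the genes, these counts describe the choice and are no test of it.

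In ZMYND8 KD cells VLDLR, LRP5 and SORL1 rose and LRP8 fell, each by less than a log2 fold change of 1. The filter passed 9 of the 10 genes, since LRP2 had no counts. Of the 9, 3 passed the test upwards (13.4% of all 19789 genes tested did) and 1 downwards (10.8% did), and 0 were called with a log2 fold change of at least 1 in either direction (1.96% of all genes). The 4 members past the test were 2 without KD control replicate 1 or without KD control replicate 2, and 1 (VLDLR) without the filter on low counts, and LRP8 did not pass in any fit with 1 library left out. The groups did not overlap for 5 of the 9, as for 61.6% of all genes. The median log2 fold change was 0.05, against -0.01 over all genes tested.

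**Figure D1:**
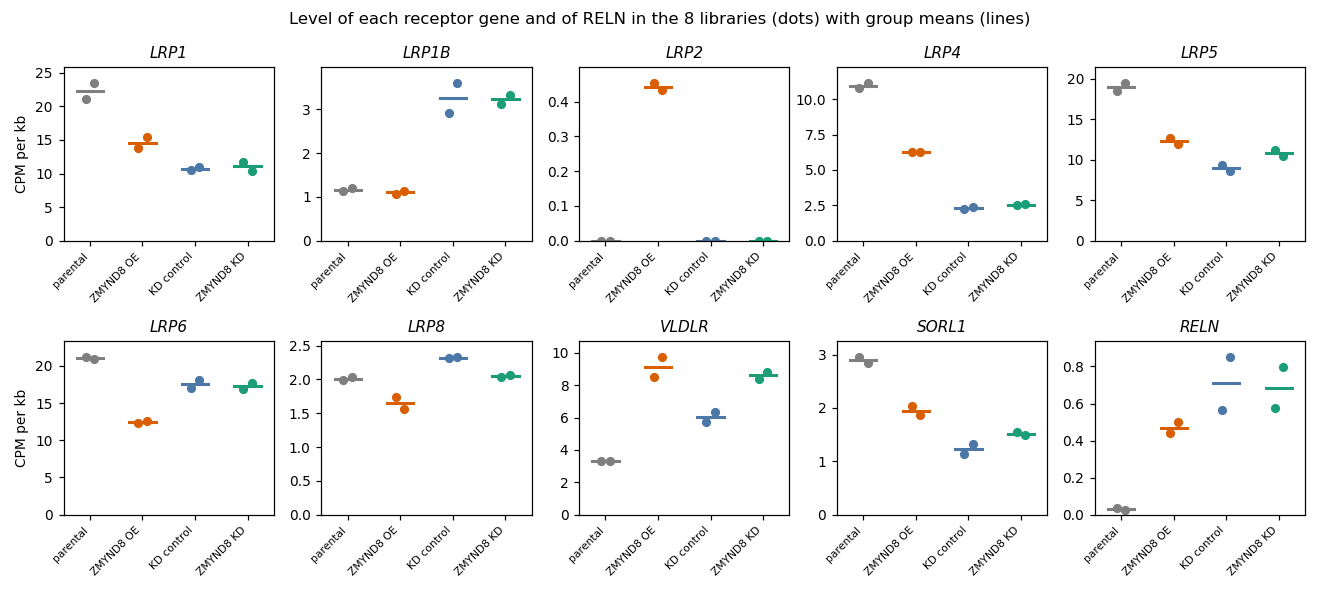
Level of each of the 10 genes in CPM per kb (vertical axes, linear and starting at 0, with their own scale) in the 2 libraries of each group (dots) with the group mean (line). LRP2 had counts only in the 2 ZMYND8 OE libraries, RELN was near 0 only in the 2 parental libraries, and LRP4 was highest in the parental libraries.

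RELN (chr7:103471784-103989658, minus strand) had 19 and 15 counts in parental cells and 303 and 281 in ZMYND8 OE cells. Its level was 0.0288 ± 0.00868 CPM per kb (SD, n = 2) in parental and 0.470 ± 0.0416 in ZMYND8 OE cells, a 16.3-fold difference (log2 fold change 4.05 ± 0.22, SE of the fit). With each of these 4 libraries left out in turn, the log2 fold change ranged from 3.75 to 4.35. KD control cells had 381 and 602 counts and ZMYND8 KD cells 385 and 531. The ranges of these last 2 groups overlapped, and the fold change between them was small against its error (log2 fold change -0.05 ± 0.19, adjusted p = 0.893). RELN was thus lowest in parental cells, and the spread between replicates was largest where it was highest, with levels of 0.567 and 0.851 in KD control cells.

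VLDLR (chr9:2621787-2660056, plus strand), the first reelin receptor, was at 3.32 and 3.35 CPM per kb in parental cells and at 8.49 and 9.74 in ZMYND8 OE cells. KD control cells had 5.71 and 6.37, and ZMYND8 KD cells 8.40 and 8.82. VLDLR was thus higher in each manipulated group than in its own control, with no overlap in either comparison. The log2 fold change was 1.46 ± 0.07 in ZMYND8 OE and 0.51 ± 0.06 in ZMYND8 KD cells (adjusted p = 0.000227). In the order of levels, ZMYND8 OE and ZMYND8 KD cells overlapped, above KD control and then parental cells. The rise in ZMYND8 KD cells passed the test in every alternative fit, with adjusted p of at most 0.00638. Of the exon bases of VLDLR 14.6% lie opposite VLDLR-AS1 and 1 other gene, and the strand setting of the counting is not given in the sources used here. VLDLR-AS1 had 35 and 54 counts in parental, 315 and 302 in ZMYND8 OE, 201 and 315 in KD control and 312 and 270 in ZMYND8 KD cells, and reads of VLDLR and VLDLR-AS1 cannot be told apart where they overlap.

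LRP8 (chr1:53242364-53328469, minus strand), the other reelin receptor, varied least of the 10 genes. Its level was 1.99 and 2.03 CPM per kb in parental, 1.74 and 1.56 in ZMYND8 OE, 2.31 and 2.33 in KD control and 2.03 and 2.06 in ZMYND8 KD cells. It was lower in both manipulated groups than in their controls, with no overlap. The log2 fold change was -0.28 ± 0.07 in ZMYND8 OE and -0.18 ± 0.06 in ZMYND8 KD cells (adjusted p = 0.0383). The fall in ZMYND8 KD cells did not pass the test with DESeq2 (adjusted p = 0.0898), without the filter on low counts (0.0887), or when any 1 of the 4 libraries was left out, with adjusted p of 0.0904 without ZMYND8 KD replicate 2, 0.117 without ZMYND8 KD replicate 1, 0.113 without KD control replicate 1 and 0.170 without KD control replicate 2. Opposite-strand genes cover 9.69% of its exon bases.

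Within each library, VLDLR exceeded LRP8 per kilobase of summed exon, which was 9.389 kb for VLDLR and 19.668 kb for LRP8. In raw counts LRP8 was above VLDLR in parental cells (1667 and 2065 against 1326 and 1624) and below it in the other groups. The order of the 2 genes thus depends on the length used, while the change of their ratio between groups does not. The ratio of VLDLR to LRP8 was 1.67 and 1.65 in parental, 4.87 and 6.25 in ZMYND8 OE, 2.47 and 2.73 in KD control and 4.13 and 4.28 in ZMYND8 KD cells. The ratio did not overlap between either manipulated group and its control.

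LRP2 (chr2:169127109-169362534, minus strand) had 393 and 308 counts in the 2 ZMYND8 OE libraries and 0 in the other 6. Its level in ZMYND8 OE cells was 0.444 ± 0.0134 CPM per kb, similar to that of RELN there and the lowest of the 10 genes. Against a floor of 3 counts per library it was at least 111-fold higher in ZMYND8 OE than in parental cells. In the libraries without counts, 3 counts would be a level of 0.00336 to 0.00438, so a lower level there was not detectable at this depth. No fold change was fitted for ZMYND8 KD cells.

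LRP1 (chr12:57128483-57213361, plus strand) was one of the 3 most abundant genes of the 10 in every group. It was at 21.2 and 23.5 CPM per kb in parental, 13.8 and 15.4 in ZMYND8 OE, 10.5 and 11.0 in KD control and 11.7 and 10.5 in ZMYND8 KD cells. Levels were lower in ZMYND8 OE than in parental cells without overlap (log2 fold change -0.60 ± 0.07), while the knockdown groups overlapped (0.05 ± 0.06, adjusted p = 0.620).

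LRP1B (chr2:140231423-142131016, minus strand), a close relative of LRP1 that takes up its ligands slowly, differed between the experiments rather than within them. It was at 1.13 and 1.20 CPM per kb in parental and 1.07 and 1.14 in ZMYND8 OE cells, which overlapped (log2 fold change -0.08 ± 0.08). It was at 2.92 and 3.60 in KD control and 3.13 and 3.33 in ZMYND8 KD cells, which overlapped too (-0.01 ± 0.09, adjusted p = 0.945). LRP1 exceeded LRP1B 18.6- and 19.5-fold per kilobase in parental, 13.0- and 13.5-fold in ZMYND8 OE, 3.59- and 3.05-fold in KD control and 3.74- and 3.14-fold in ZMYND8 KD cells.

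LRP5 (chr11:68312591-68449275, plus strand) was at 18.5 and 19.4 CPM per kb in parental, 12.6 and 11.9 in ZMYND8 OE, 9.34 and 8.60 in KD control and 11.1 and 10.4 in ZMYND8 KD cells. No neighbours in the order of the 4 groups overlapped. The log2 fold change was -0.62 ± 0.05 in ZMYND8 OE cells, and LRP5 rose in ZMYND8 KD cells by 0.27 ± 0.06 (adjusted p = 0.00861). The rise did not pass the test without KD control replicate 2 (adjusted p = 0.106) or without the filter on low counts (0.0513).

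LRP6 (chr12:12116025-12267044, minus strand), the partner of LRP5 at the WNT receptor, was at 21.2 and 20.9 CPM per kb in parental and at 12.3 and 12.6 in ZMYND8 OE cells (log2 fold change -0.75 ± 0.05). It was at 17.0 and 18.2 in KD control and 16.9 and 17.7 in ZMYND8 KD cells, which overlapped (-0.02 ± 0.05, adjusted p = 0.839). The ratio of LRP6 to LRP5 was near 1 in the overexpression experiment, from 0.970 to 1.15, and was 1.82 and 2.11 in KD control and 1.52 and 1.70 in ZMYND8 KD cells.

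LRP4 (chr11:46856717-46918642, minus strand) was at 10.8 and 11.1 CPM per kb in parental, 6.25 and 6.24 in ZMYND8 OE, 2.23 and 2.37 in KD control and 2.52 and 2.58 in ZMYND8 KD cells. The 4 groups did not overlap, with parental cells highest. The log2 fold change was -0.80 ± 0.05 in ZMYND8 OE cells, the lowest of the 10 genes, and 0.15 ± 0.07 in ZMYND8 KD cells, where it did not pass the test (adjusted p = 0.161). LRP4-AS1, on the opposite strand, covers 5.89% of the exon bases of LRP4 and had 4 to 28 counts per library.

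SORL1 (chr11:121452314-121633763, plus strand) was at 2.95 and 2.84 CPM per kb in parental, 2.03 and 1.86 in ZMYND8 OE, 1.14 and 1.33 in KD control and 1.54 and 1.49 in ZMYND8 KD cells, with no overlap between neighbouring groups. The log2 fold change was -0.56 ± 0.06 in ZMYND8 OE cells, and SORL1 rose in ZMYND8 KD cells by 0.30 ± 0.08 (adjusted p = 0.0238). The rise did not pass the test without KD control replicate 1 (adjusted p = 0.194), with the trend over gene length taken out (0.0655) or without the filter on low counts (0.0915).

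**Figure D2:**
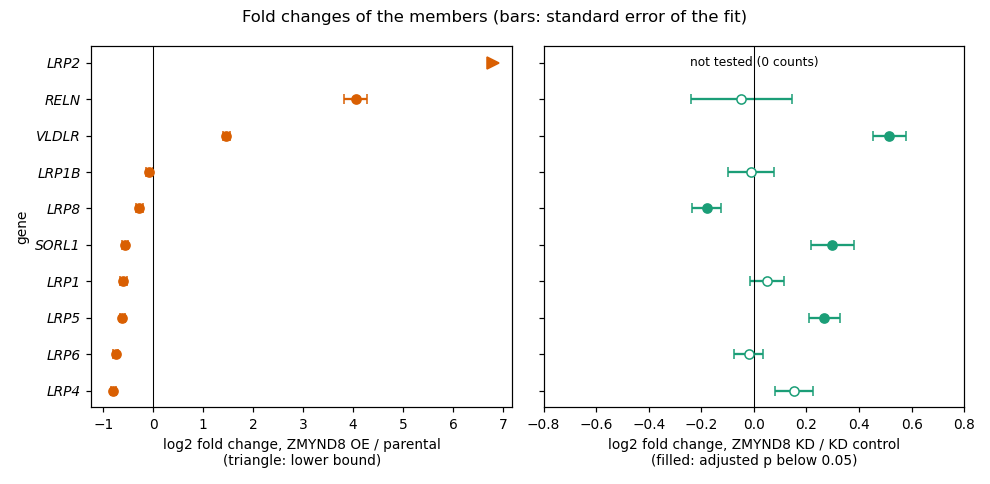
Log2 fold change (horizontal axes) of each of the 10 genes in ZMYND8 OE against parental cells (left) and in ZMYND8 KD against KD control cells (right), 2 libraries a group, with the SE of the fit as bars. Left, LRP2 is drawn as a triangle at its lower bound (6.80), RELN lies at 4.05 and VLDLR at 1.46, and 7 genes lie below 0. Right, filled points passed the test (VLDLR, LRP5, SORL1 and LRP8), open points did not, and the axis covers a narrower range.

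The summed level of the 10 genes was 81.1 and 84.4 CPM per kb in parental, 59.2 and 61.4 in ZMYND8 OE, 51.7 and 54.6 in KD control and 57.9 and 57.7 in ZMYND8 KD cells. LRP1, LRP5 and LRP6 were the bulk of it in every group. VLDLR was 4.03% of the sum in parental, 15.1% in ZMYND8 OE, 11.4% in KD control and 14.9% in ZMYND8 KD cells, and LRP4 was 13.3%, 10.4%, 4.32% and 4.41% in the same order. RELN and LRP2 were 0.779% and 0.737% of it in ZMYND8 OE cells.

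**Figure D3:**
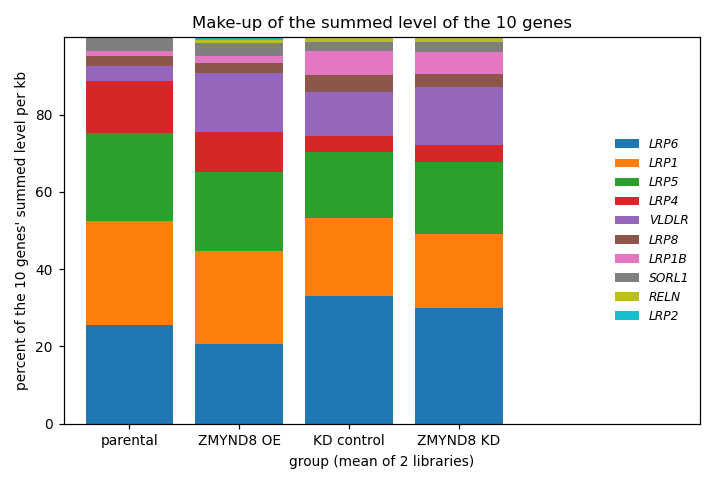
Share of each gene (colours) in the summed level per kilobase of the 10 genes, in percent (vertical axis), for the mean of the 2 libraries of each group. VLDLR took 4.03% in parental and 15.1% in ZMYND8 OE cells, and LRP1, LRP5 and LRP6 made up most of each bar.

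The controls of the 2 experiments differed for several of the genes. Mean levels in KD control cells were 24.6 times those of parental cells for RELN, 2.79 times for LRP1B and 1.81 times for VLDLR. Parental cells exceeded KD control cells 4.77-fold for LRP4, 2.34-fold for SORL1, 2.11-fold for LRP5 and 2.08-fold for LRP1. Dox, the knockdown procedure and the experiment differ together between these controls and cannot be told apart, and no test was made.

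Markers of 2 states of neuroblastoma cells, adrenergic and mesenchymal, moved in the same comparisons. The 12 adrenergic markers summed to 127 to 128 CPM per kb in parental, 373 to 394 in ZMYND8 OE, 259 to 275 in KD control and 203 to 229 in ZMYND8 KD cells. In ZMYND8 OE cells 11 of the 11 tested passed the test upwards, where 31.7% of all genes tested passed upwards and 29.1% downwards. In ZMYND8 KD cells 5 of the 10 tested passed downwards and 0 upwards, where 10.8% of all genes tested passed downwards and 13.4% upwards. The 12 mesenchymal markers summed to 1263 to 1317, 546 to 581, 656 to 680 and 836 to 871 in the same order of groups. Of these, 11 passed downwards and 1 upwards in ZMYND8 OE cells, and 7 upwards and 2 downwards in ZMYND8 KD cells. In these bulk samples, fewer cells of a state and less RNA per cell cannot be told apart, and the part of such states in the levels of the receptors was not tested.

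Partner genes were taken from 8 lists by role, 107 genes in all, and the lists were drawn up with earlier results of these data known. In ZMYND8 OE cells 32 of the 98 tested passed upwards and 51 downwards, with a median log2 fold change of -0.19. The medians of the lists do not change where a gene with no counts in parental cells is set to its lower bound. In ZMYND8 KD cells 17 of the 92 tested passed upwards and 14 downwards, with a median of -0.01. The shares of all genes tested that passed stand above, and genes with the largest rises and falls of each list are named where there were any. Opposite-strand genes cover 47.5% of the exon bases of DKK3, 47.2% of LDLRAD2, 31.3% of PSENEN, 19.8% of PIK3CA, 15.4% of KREMEN2 and 11.7% of MAPK8IP1. For PSENEN, 21.0% are shared on its own strand. Reads in these stretches cannot be told apart, since the strand setting is not given.

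Of 20 genes of reelin signalling, 8 rose and 9 fell in ZMYND8 OE cells (median log2 fold change 0.00). CDK5R2, an activator of the neuronal kinase CDK5, rose from 0.633 and 0.629 to 20.6 and 20.4 CPM per kb (log2 fold change 5.03 ± 0.09, adjusted p = 3.11e-11). FYN, a kinase of the SRC family that phosphorylates DAB1, rose by 0.96 ± 0.06 (adjusted p = 2.43e-07). LIMK1, a kinase of the actin regulator cofilin, fell by 1.16, and DAB1, the reelin adaptor itself, fell by 1.12 ± 0.13 (adjusted p = 2.75e-05), from 1.49 and 1.22 to 0.593 and 0.647 CPM per kb. The ligand and VLDLR were thus higher, and the adaptor and LRP8 lower, in the same 2 libraries.

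Of the same 20 genes, 4 rose and 2 fell in ZMYND8 KD cells (median -0.03). PIK3R1, the regulatory subunit of PI3-kinase, rose by 0.58 ± 0.05 (adjusted p = 3.92e-05) and LIMK1 by 0.40 ± 0.06 (0.000968), while PIK3CA, the catalytic subunit, fell by 0.34 (0.00127). CDK5R2 fell by 0.43 (adjusted p = 0.0175), which did not pass the test without KD control replicate 1 (0.0865), KD control replicate 2 (0.0567) or ZMYND8 KD replicate 1 (0.0917), or without the filter on low counts (0.0906).

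**Figure D4:**
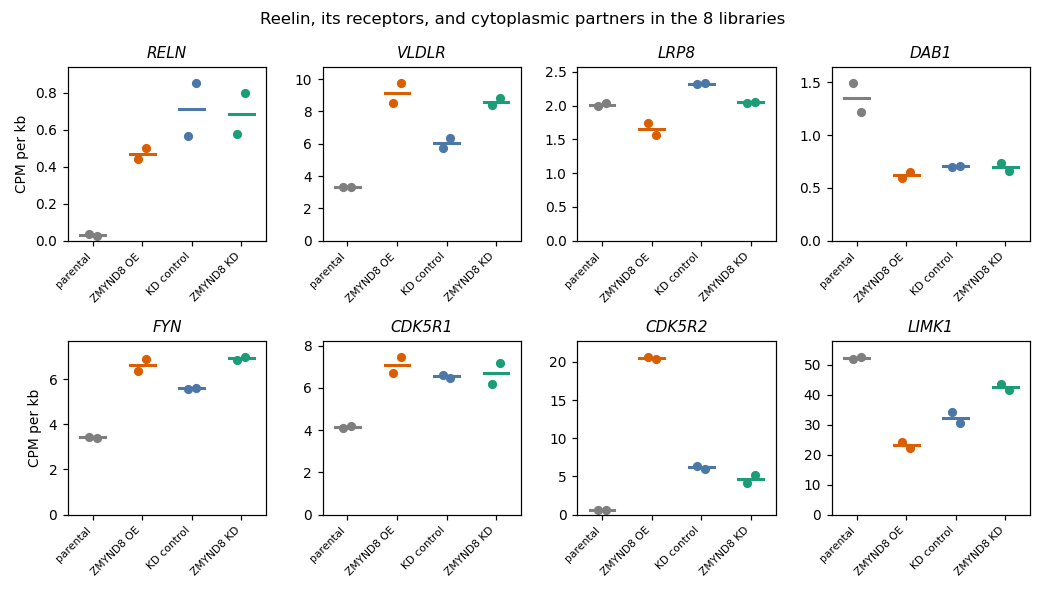
Level in CPM per kb (vertical axes, linear, starting at 0, with their own scale) of RELN, its receptors VLDLR and LRP8, the adaptor DAB1, the kinase FYN, the CDK5 activators CDK5R1 and CDK5R2, and the kinase LIMK1 in the 2 libraries of each group (dots) with the mean (line). CDK5R2 was highest in ZMYND8 OE cells, at 20.6 and 20.4, and DAB1 was highest in parental cells, at 1.49 and 1.22.

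Of the other genes of the LDL receptor family or named after it, 2 of the 9 tested rose and 6 fell in ZMYND8 OE cells (median -0.59). In ZMYND8 KD cells 2 rose and 2 fell (median 0.06). LDLRAD4 rose by 3.63 ± 0.13 and LRP3 by 0.30 ± 0.05 in ZMYND8 OE cells, where LDLRAD2 fell by 1.63. In ZMYND8 KD cells LDLRAD3 rose by 0.30 ± 0.06 (adjusted p = 0.00330), and LRP10 fell by 0.22 (0.0262). The fall of LRP10 did not pass without KD control replicate 1 (0.184), without ZMYND8 KD replicate 2 (0.0864) or without the filter on low counts (0.119).

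Of the ligands of LRP1 and LRP2, 4 of 13 rose and 9 fell in ZMYND8 OE cells (median -2.05). PLAT, tissue plasminogen activator, fell from 418 and 433 to 58.8 and 51.5 CPM per kb (log2 fold change -2.94 ± 0.07, adjusted p = 1.87e-10), and TFPI, an inhibitor of coagulation, fell by 2.86 ± 0.13. APOE, an apolipoprotein, rose by 1.03 ± 0.06 (adjusted p = 8.58e-08). A2M, a protease inhibitor, had 2 and 7 counts in parental cells and rose by 3.91 ± 0.39, or by 3.40 without parental replicate 1 and 4.88 without parental replicate 2. LPL, lipoprotein lipase, had 0 counts in parental cells and was at least 8.73-fold higher in ZMYND8 OE cells against 3 counts per library.

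Among the 12 ligands tested in ZMYND8 KD cells, 4 rose and 4 fell (median 0.04). TFPI rose by 0.84 ± 0.11 (adjusted p = 0.000428). APOE fell by 0.69 ± 0.05 (1.19e-05) and PLAT by 0.69 ± 0.06 (3.46e-05), from 236 and 217 to 146 and 135 CPM per kb.

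Of 17 chaperones, adaptors and turnover factors of these receptors, 6 rose and 8 fell in ZMYND8 OE cells (median -0.14). MAPK8IP2, a JNK scaffold that binds LRP8, rose by 2.99 ± 0.06 (adjusted p = 7.41e-11) and its relative MAPK8IP1 by 1.43 ± 0.06. DAB2, an endocytic adaptor, fell by 1.07 ± 0.14. Of the 15 tested in ZMYND8 KD cells, 3 rose and 2 fell (median 0.07). DAB2 rose by 1.23 ± 0.15 (adjusted p = 0.000215), and MYLIP, a ubiquitin ligase for VLDLR and LRP8, rose by 0.50 ± 0.11 (0.00712), which did not pass without KD control replicate 2 (0.0615). DLG4, a postsynaptic scaffold, fell by 0.26 (0.00545), and MAPK8IP2 fell by 0.25 (0.0142), which did not pass without KD control replicate 2 (0.101).

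Of the modulators of the WNT co-receptors, 7 of the 14 tested rose and 5 fell in ZMYND8 OE cells (median 0.41). KREMEN2, a receptor for the WNT inhibitor DKK1, rose by 4.32 ± 0.18 (adjusted p = 9.80e-09). RSPO4, an R-spondin that enhances WNT signalling, had 4 and 1 counts in parental and 193 and 157 in ZMYND8 OE cells, and rose by 6.01 ± 0.37, or by 7.35 without parental replicate 1 and 5.22 without parental replicate 2. RSPO1 had 0 counts in parental cells and was at least 6.58-fold higher in ZMYND8 OE cells. DKK3 fell by 1.21 and DKK2 by 0.97. Of the 13 tested in ZMYND8 KD cells 1, the R-spondin receptor LGR4, rose (0.29 ± 0.06, adjusted p = 0.00863) and 0 fell (median -0.06), and LGR4 did not pass without KD control replicate 2 (0.0662). Of the agrin pathway of LRP4, AGRN, agrin itself, was at 15.9 and 17.9 in parental and 17.2 and 18.7 CPM per kb in ZMYND8 OE cells, and at 6.34 and 5.84 in KD control and 6.63 and 5.22 in ZMYND8 KD cells. Of its 4 genes 2 were tested in ZMYND8 OE cells, of which 1 rose (median 1.46), and 1 in ZMYND8 KD cells, which did not pass.

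Of the sheddases and gamma-secretase subunits, which cut several of these receptors, 0 of 10 rose and 7 fell in ZMYND8 OE cells (median -0.32). MMP14, a membrane-bound metalloprotease, fell by 1.39 ± 0.05 (adjusted p = 6.46e-09), and NCSTN, a subunit of gamma-secretase, by 0.89 ± 0.05 (1.23e-07). In ZMYND8 KD cells 1 rose and 3 fell (median -0.07). The subunit APH1B rose by 1.01 ± 0.07 (adjusted p = 7.43e-06), while the subunit PSENEN fell by 0.24 (0.00935), which did not pass without KD control replicate 1 (0.0733).

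Of the sortilin family and retromer, the relatives and the sorting machinery of SORL1, 4 of 13 rose and 7 fell in ZMYND8 OE cells (median -0.29). SORCS3 had 0 counts in parental cells and 101 and 96 in ZMYND8 OE cells, at least 31.5-fold higher against 3 counts per library, and SORCS1 rose by 1.81 ± 0.08. PACS1 fell by 0.54 and SORCS2 by 0.64 (adjusted p = 0.0186), but SORCS2 did not pass with DESeq2 (0.0774), without parental replicate 1 (0.125) or without ZMYND8 OE replicate 2 (0.0862). Knockdown of ZMYND8 came with 2 of the 12 tested higher and 1 lower past the test (median 0.00). VPS26B and VPS35, retromer subunits, rose by 0.25 and 0.20 (adjusted p = 0.00543 and 0.0148), and SORT1 fell by 0.27 (0.00226). Without KD control replicate 2, neither VPS26B (0.0602) nor VPS35 (0.120) passed, and VPS35 did not pass without ZMYND8 KD replicate 2 (0.0541).

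**Figure D5:**
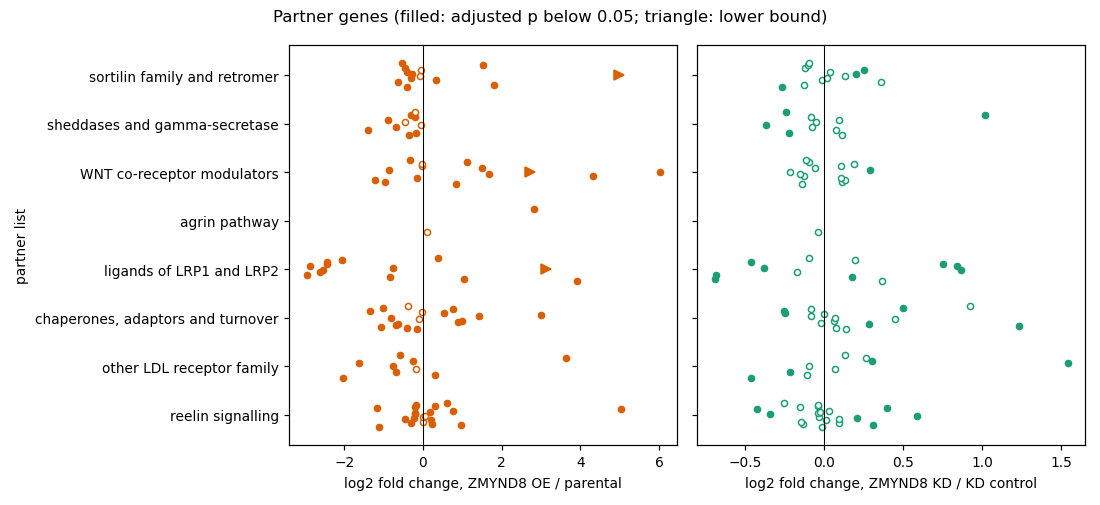
Log2 fold change (horizontal axes) of the tested genes of the 8 partner lists (vertical axis) in ZMYND8 OE against parental cells (left) and ZMYND8 KD against KD control cells (right), each point a gene, filled where it passed the test. Triangles mark lower bounds for genes with 0 counts in parental cells. Ligands of LRP1 and LRP2 spread widest to the left in ZMYND8 OE cells, with a median of -2.05, and the right axis covers a narrower range.

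Genes with the most similar pattern were sought for the 4 members whose group means differed most, as the smallest root mean square difference of centred log2 levels over the 8 libraries. LRP2 was nearest to AFF2 (0.223) and CACNA1H (0.268), RELN to SYN1 (0.178) and STMN4 (0.213), LRP4 to SFRP1 (0.0493) and CELSR1 (0.0755), and LRP1B to ATP5MF (0.103) and PPP1R9A (0.107), among 13549 genes for the last 3 and 13550 for LRP2. The 8 points share library, depth and experiment, and these values are a description.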

How the data were processed

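RNA of 8 SK-N-SH libraries was analysed, grouped by the treatment in the labels. The authors deposited 1 table of raw counts, whole numbers of reads per gene, with gene coordinates and summed exon lengths. According to their processing notes and methods, reads were aligned to hg38 (GRCh38) with HISAT2 and counted with featureCounts; the strand setting is not given in the sources used here. Of 60662 lines, 3 that belonged to 1 split gene were left out. Symbols came from GENCODE release 44, which held 60418 of the 60659 identifiers. Exon overlaps came from the gene coordinates deposited with the counts, and promoters from RefSeq.

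The 4 libraries of an experiment entered 1 fit in edgeR 4.0.16 (limma 3.58.1, R 4.3.3). Genes of low counts were removed with filterByExpr, libraries were scaled by TMM, and the quasi-likelihood test, two-sided, was adjusted after Benjamini and Hochberg over all genes tested. A gene passed at an adjusted p below 0.05 and was called if its log2 fold change was also at least 1 in size and its mean normalized count above 20. "Rose" and "fell" refer to genes that passed, and values after them are log2 fold changes ± SE. On simulated counts with 200 genes changed 4-fold, the fit recovered 200 with the right sign in either comparison. Of the unchanged genes, 11 also passed in the overexpression comparison (20454 genes tested) and 4 in the knockdown comparison (19740 genes tested). These changes were large and in few genes, so the outcome cannot speak for small fold changes or for comparisons where many genes differ. Replicates differed by more than counting noise (chi-square over its degrees of freedom 5.59 to 8.08). Depth limits low levels, and a floor of 3 counts was used where a group had none.

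The members and lists were chosen with earlier results of these data known. All 10 members were named, with, for each list and comparison, the 2 largest rises and falls past the test at a mean above 20, the nearest genes in pattern (mean above 100, pseudocount 0.1 CPM) and ZMYND8. A few genes that this rule names are not reported here, though the counts and medians of their lists include them. A few further genes (LPL, RSPO1, AGRN, CDK5R1 and VLDLR-AS1) were named after their values were seen. Alternatives were RLE and upper quartile scaling, DESeq2 1.42.0, no filter, 1 fit of all 8 libraries, a replicate block, a gene length trend taken out, the stricter call, and each library left out. Library totals without TMM were an alternative for the levels.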

Additional observations from a re-analysis of the deposited data

How the results depend on the processing

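In ZMYND8 OE cells 12663 genes passed the test, and 3876 with the stricter call of a log2 fold change of at least 1. In ZMYND8 KD cells 4799 passed, 388 with the stricter call and 2970 without the filter on low counts, where 1 of the members (VLDLR) in place of 4 passed. With each library left out in turn, 11348 to 11867 genes passed in ZMYND8 OE cells, and 2813 to 4603 genes and 2 to 3 members in ZMYND8 KD cells, where fewer samples were fitted. Over all genes tested, the deviations of replicates with the same number were not correlated (0.00877 and -0.00728). Such a correlation cannot exclude a pairing that concerns only some genes. With the replicate block 12742 and 6318 genes passed, against 12663 and 4799 without it, and 4 members in ZMYND8 KD cells. Signs turned in ZMYND8 KD cells only for genes that did not pass. LRP1 was at -0.0211 with the gene length trend taken out and at -0.0236 with the replicate block as well. Over the fits with 1 library left out, LRP1 ranged from -0.0399 to 0.134, LRP1B from -0.16 to 0.15, LRP6 from -0.0755 to 0.0303 and RELN from -0.32 to 0.28. The cause was not tested. Upper quartile scaling moved the share that was higher among genes past the test in ZMYND8 OE cells from 52.2% to 59.2% and the median of all genes from 0.03 to 0.11. Under it LRP1B in ZMYND8 OE cells was at 0.00276, and no other member changed direction. Scaled to library totals without TMM, the mean levels of the members that were above 0 changed by between -6.06% and 14.4%. Of all 40 mean levels, 25 changed by more than 1 SD.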
